A study of Mus musculus with 8 samples.

Results

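The proteasome-symbol genes are the protein-coding mouse genes whose symbol is Psma, Psmb, Psmc, Psmd, Psme, Psmf or Psmg followed by a number. Symbols were matched from the Ensembl gene IDs of the 4 deposited RNA-seq tables, and 50 of the 45706 genes listed met this rule. Another 4 symbol matches were not protein-coding and were left out. By role, 14 genes encode the 20S core, 17 the 19S cap, 5 the immunoproteasome and its inducible activator, 7 assembly chaperones, and 7 were kept apart as other members.

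The proteasome is the protease that degrades ubiquitin-tagged proteins in the cytosol and nucleus. Its barrel-shaped core stacks rings of alpha subunits, which gate the entrance, on rings of beta subunits, of which Psmb5, Psmb6 and Psmb7 carry the cutting sites. A cap of ATPases and non-ATPase subunits recognises ubiquitin, unfolds the protein and feeds it into the core. In blood cells and under interferon, Psmb8, Psmb9 and Psmb10 take the places of the constitutive cutting subunits, and the core then yields peptides suited to MHC class I. Blood stem cells are known for a low rate of protein synthesis and for their sensitivity to misfolded proteins.

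RNA-seq and ATAC-seq, a map of open chromatin by transposase insertion, were made from LSK cells of C57BL/6 bone marrow. The LSK gate (lineage-negative, Sca1-positive, Kit-positive) holds the blood stem cells and multipotent progenitors. Each assay had 2 libraries labelled Hira KO, from mice with a conditional knockout of the histone chaperone gene Hira, and 2 labelled WT. The labels name neither the driver of the deletion, nor the age of the mice, nor whether libraries of a group came from separate mice, so p-values measure the spread between these libraries.

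Depth was 17.5 and 19.4 M expected counts in labelled Hira KO replicates 1 and 2, and 16.6 and 19.8 M in labelled WT replicates 1 and 2. Mitochondrially encoded genes took between 40.8% and 53.1% of the counts of a library. Hira stood at 24.4 and 23.3 CPM (counts over the TMM-scaled library size) in labelled Hira KO, against 16.5 and 17.2 CPM in labelled WT, which goes against the titles. The deposited file names also carry the other genotype, so libraries are named by their labels and each direction below depends on them. The Hira count covers the whole gene and can include reads outside a deleted stretch. Over the tested genes, labelled Hira KO replicate 2 was the library least like the others, with correlations of log2 CPM between 0.891 and 0.938. Labelled Hira KO replicate 1 correlated at 0.938 with it and at 0.934 with labelled WT replicate 1. Kit, which defines the gate, was at 330 and 327 CPM in labelled Hira KO and 274 and 351 CPM in labelled WT. Ly6a, which encodes Sca1, was at 23.1 and 33.6 CPM in labelled Hira KO and 10.3 and 8.86 CPM in labelled WT.

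Promoters of 7 members are printed because they pair genes that hold the same short motif but differ in their RNA values below, or, for Psmb8, because its start site was called open in some libraries but not in all. Each window runs from 250 bases before to 50 bases after the RefSeq transcription start, 5′ to 3′ on the gene's own strand, build GRCm38.p6. Capitals mark matches on either strand to an antioxidant response element (TGACNNNGC, bound by the Nfe2l1 and Nfe2l2 factors), to the Ets core (CCGGAAG), or to an interferon-stimulated response element, searched as GAAA, any 2 bases, GAAA. Psmb5 and Psmb6 hold the first, Psmd13 and Psmc2 the second, and Psmb3 and Psme1 the third, while the Psmb8 window holds none of them.
Psmb5, chr14:54617946-54618245, minus strand: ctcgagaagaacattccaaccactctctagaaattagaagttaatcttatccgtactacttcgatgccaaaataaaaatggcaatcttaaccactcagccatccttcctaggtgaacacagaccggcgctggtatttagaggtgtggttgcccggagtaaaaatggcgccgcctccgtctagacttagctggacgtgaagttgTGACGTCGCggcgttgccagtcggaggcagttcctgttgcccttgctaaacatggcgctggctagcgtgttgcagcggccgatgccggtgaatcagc
Psmb6, chr11:70525107-70525406, plus strand: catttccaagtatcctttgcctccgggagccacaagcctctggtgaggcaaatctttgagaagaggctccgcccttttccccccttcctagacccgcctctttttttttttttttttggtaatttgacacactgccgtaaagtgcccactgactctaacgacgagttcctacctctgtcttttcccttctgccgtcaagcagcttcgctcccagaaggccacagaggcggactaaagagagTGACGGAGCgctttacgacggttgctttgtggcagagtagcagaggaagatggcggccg
Psmd13, chr7:140882144-140882443, plus strand: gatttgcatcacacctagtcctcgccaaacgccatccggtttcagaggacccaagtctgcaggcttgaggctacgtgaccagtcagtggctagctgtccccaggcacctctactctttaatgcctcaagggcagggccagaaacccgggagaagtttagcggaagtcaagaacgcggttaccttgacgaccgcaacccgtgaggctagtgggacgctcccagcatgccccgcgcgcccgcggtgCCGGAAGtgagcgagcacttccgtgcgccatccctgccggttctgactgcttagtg
Psmc2, chr5:21785025-21785324, plus strand: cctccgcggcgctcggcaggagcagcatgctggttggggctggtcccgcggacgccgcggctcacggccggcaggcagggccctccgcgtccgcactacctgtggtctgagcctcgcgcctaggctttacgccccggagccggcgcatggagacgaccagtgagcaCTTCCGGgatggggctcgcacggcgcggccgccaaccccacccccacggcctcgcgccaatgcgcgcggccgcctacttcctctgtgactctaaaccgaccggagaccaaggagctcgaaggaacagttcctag
Psmb3, chr11:97703184-97703483, plus strand: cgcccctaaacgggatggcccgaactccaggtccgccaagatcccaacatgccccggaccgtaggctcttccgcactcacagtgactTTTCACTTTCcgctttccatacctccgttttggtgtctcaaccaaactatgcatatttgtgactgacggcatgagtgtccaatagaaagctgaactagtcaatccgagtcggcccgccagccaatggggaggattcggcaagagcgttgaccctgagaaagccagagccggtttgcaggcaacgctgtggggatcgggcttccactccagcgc
Psme1, chr14:55578244-55578543, plus strand: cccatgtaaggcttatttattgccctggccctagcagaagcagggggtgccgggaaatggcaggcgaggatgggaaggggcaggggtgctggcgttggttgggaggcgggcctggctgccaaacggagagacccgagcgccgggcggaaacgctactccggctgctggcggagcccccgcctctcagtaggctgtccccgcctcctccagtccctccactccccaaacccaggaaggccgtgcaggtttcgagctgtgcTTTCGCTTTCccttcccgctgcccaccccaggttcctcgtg
Psmb8, chr17:34197945-34198244, plus strand: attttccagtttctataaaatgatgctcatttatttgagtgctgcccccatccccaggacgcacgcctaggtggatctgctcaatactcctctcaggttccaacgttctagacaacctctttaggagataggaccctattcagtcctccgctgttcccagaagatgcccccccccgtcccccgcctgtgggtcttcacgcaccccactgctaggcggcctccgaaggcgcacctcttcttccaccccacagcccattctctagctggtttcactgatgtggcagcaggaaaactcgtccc

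The first comparison asked whether proteasome RNA differs between LSK cells of the 2 genotypes. Most members had lower values in labelled Hira KO, but none passed the test. The median log2 fold change, labelled Hira KO over labelled WT, was −0.38 over the 50 members and 0.01 over all 16258 tested genes. A log2 estimate below is this fold change of a gene as fitted by edgeR. All 50 members passed the filter on low counts. The lowest member value was −1.49 (Psmg3) and the highest was 1.46 (Psmb11). In edgeR's quasi-likelihood test with Benjamini-Hochberg adjustment over all tested genes, 0 of 50 members were called higher and 0 lower. Of all tested genes 1.8% were called, 1.32% higher and 0.48% lower. At an unadjusted p below 0.05 there were 15 members, all lower in labelled Hira KO, against 10.6% of all tested genes at that level and in that direction. The fitted change was below 0 in 44 members, against 49.1% of all tested genes.

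Library by library, 34 members had both labelled Hira KO libraries below both labelled WT libraries, a pattern found in 27.8% of all tested genes. The opposite pattern was found in 1 member, Psmb11, against 28.3% of all tested genes. The summed CPM of the members was 1447 and 1291 in labelled Hira KO and 1838 and 1720 in labelled WT, so the groups did not overlap. The members took 0.279% and 0.236% of the non-mitochondrial counts in labelled Hira KO and 0.354% and 0.328% in labelled WT. In bulk RNA, fewer cells of a type with much of this RNA and less of it per cell cannot be told apart. The count of calls rested on single libraries. Leaving out labelled Hira KO replicate 1 gave 16 members called lower, in a fit that called 10.8% of all its genes lower. Leaving out labelled Hira KO replicate 2 gave 4, against 3.07% of all genes, and leaving out either labelled WT library gave 0, against 0.00567% without replicate 1 and 0.00571% without replicate 2. DESeq2 called 3 members lower, namely Psmb3, Psmb5 and Psme3, against 3.54% of all genes. With no filter on low counts edgeR called 9 members lower, against 3.42% of all genes. On log2(TPM + 1) limma called 2 lower, against 1.61%, and on log2(TPM + 0.1) it called 1, against 1.51%.

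**Figure D1:**
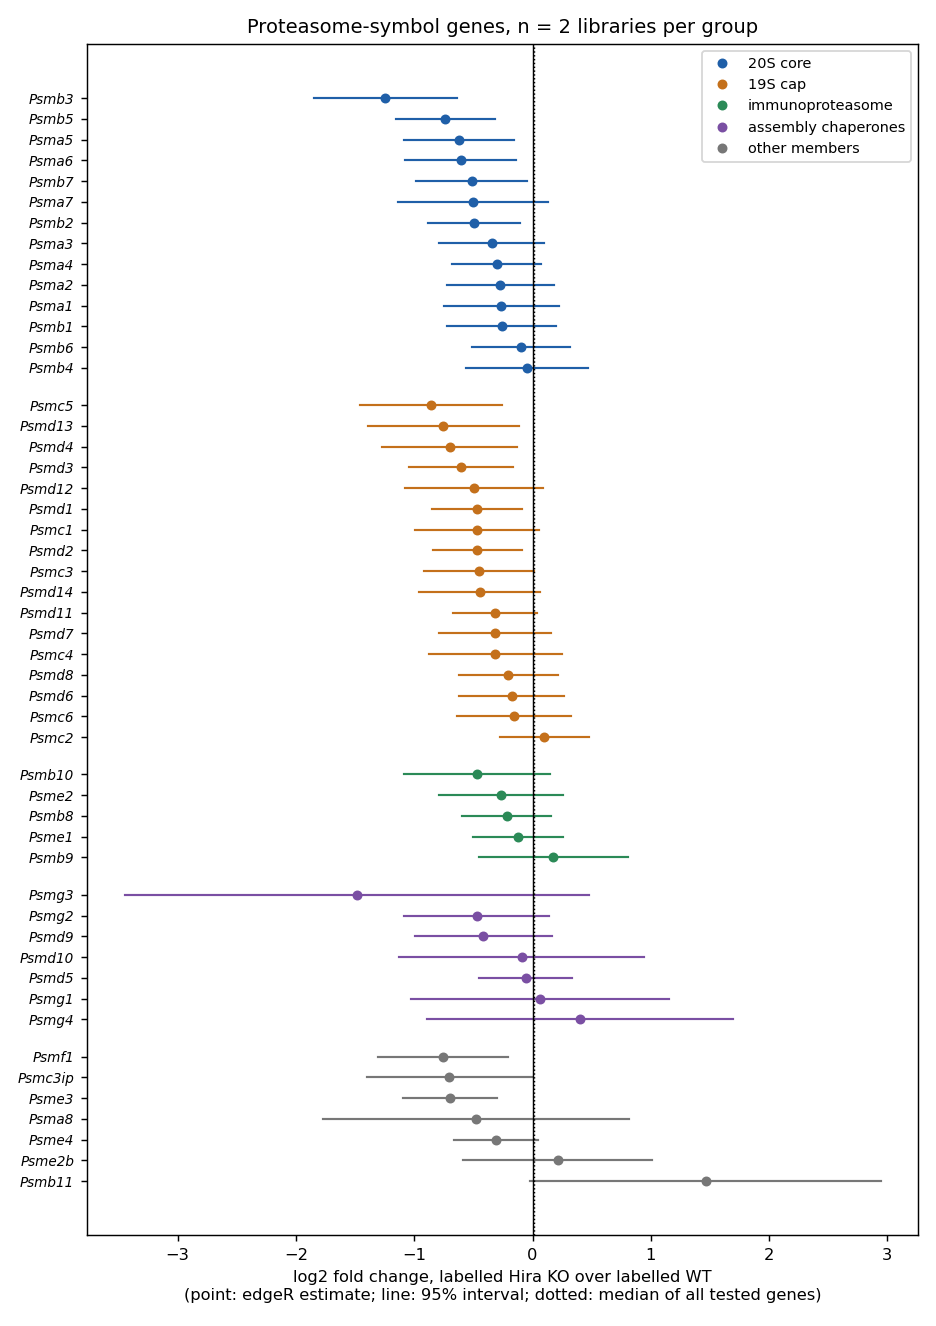
Log2 fold change of each of the 50 proteasome-symbol genes (x axis, labelled Hira KO over labelled WT), with 1 row per gene, grouped by role. Points are edgeR estimates, lines their 95% intervals, and the dotted line the median of all tested genes at 0.01. The points lie left of 0 for 44 genes, with medians of −0.42 for the 20S core, −0.45 for the 19S cap and −0.22 for the immunoproteasome.

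Marker levels of other cell types differed between the same libraries. The summed TPM (a level per transcript length on a common total) of the 7 granulocyte markers was 2299 and 1093 in labelled Hira KO and 4885 and 2507 in labelled WT, with Mpo, the myeloperoxidase gene, as the most abundant. Without Mpo the TPM sums overlapped, at 1335 and 846 TPM in labelled Hira KO and 2233 and 1199 TPM in labelled WT. TPM ran lower in replicate 2 of each group in general. Its median over all tested genes was 6.39 and 4.72 in labelled Hira KO and 6.39 and 4.85 in labelled WT. By edgeR all 7 granulocyte estimates were below 0, with a median log2 estimate of −1.50, and 1 gene (Lcn2) was called lower. The sum for the 8 erythroid markers was 65.5 and 55.4 TPM in labelled Hira KO and 135 and 97.7 TPM in labelled WT. These markers did not share a direction, with 4 edgeR estimates above 0 and 4 below, and a median log2 estimate of −0.43. For the 10 macrophage, monocyte and dendritic markers the sum was 83.2 and 76.3 TPM in labelled Hira KO and 262 and 124 TPM in labelled WT. The last of these sums was carried by the monocyte marker Ly6c2, at 46.8 and 32.1 TPM in labelled Hira KO and 220 and 90.1 TPM in labelled WT. Without Ly6c2 the groups overlapped, at 36.4 and 44.2 TPM in labelled Hira KO and 42.4 and 33.6 TPM in labelled WT, and the median log2 estimate of the whole list was 0.21. The 11 LSK markers summed to 677 and 638 TPM in labelled Hira KO and 386 and 328 TPM in labelled WT, and those called higher included Hlf, Meis1, Flt3 and Ly6a. The groups overlapped for the 11 B and plasma cell markers, at 339 and 201 TPM in labelled Hira KO and 239 and 138 TPM in labelled WT. They also overlapped for the 8 T and NK markers, at 145 and 44.2 TPM in labelled Hira KO and 161 and 112 TPM in labelled WT. The 7 stromal and endothelial markers summed to 32.2 and 24.6 TPM in labelled Hira KO and 46.0 and 28.8 TPM in labelled WT, most of it from Pecam1, a gene that blood cells also express. Without Pecam1 their sum was 1.39 and 3.41 TPM in labelled Hira KO and 9.96 and 7.77 TPM in labelled WT, without overlap, and the median log2 estimate of that list was −1.29. Single genes called by edgeR in these lists were Ly6c2 and Cdh5, lower, and Jchain and Cd4, higher, and of the erythroid markers none was called, with 1 at an unadjusted p below 0.05. No marker of any list was at 0 in every library. The part of these cell types in the proteasome values was not tested.

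The alpha ring of the core is built from Psma1 to Psma7. All 7 of these genes had both labelled Hira KO libraries below both labelled WT libraries, against 27.8% of all tested genes. Their median log2 estimate was −0.35. Psma5 had the lowest estimate of the ring. It was at 25.9 and 20.02 CPM in labelled Hira KO, against 36.4 and 34.2 CPM in labelled WT, a log2 estimate of −0.62 (SE 0.20, edgeR adjusted p 0.128). Psma6 stood close to it at −0.61, and Psma7 at −0.51. Psma1 had the estimate nearest 0. Its values were 14.4 and 15.03 CPM in labelled Hira KO and 16.7 and 18.6 CPM in labelled WT, a log2 estimate of −0.26 (SE 0.21, edgeR adjusted p 0.493). The gap between the groups was narrow for Psma3, at 41.5 and 51.0 CPM in labelled Hira KO and 65.7 and 51.9 CPM in labelled WT. Psma3 and Psma4 are among 9 members that each overlap another annotated gene. The others are Psmc3ip, Psmd1, Psmd10, Psme1, Psme2b, Psme4 and Psmf1. Without strand in the counts, reads of such an overlap cannot be assigned to one of the genes.

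The beta ring is built from Psmb1 to Psmb7. Its median log2 estimate was −0.49. In 5 of the 7 genes both labelled Hira KO libraries were below both labelled WT libraries, against 27.8% of all tested genes. Psmb3, a structural subunit without a cutting site, had the lowest adjusted p of all members. It was at 13.5 and 8.78 CPM in labelled Hira KO and 24.6 and 28.3 CPM in labelled WT. The higher labelled Hira KO library was well below the lower labelled WT library. The log2 estimate was −1.24 (SE 0.26, 95% interval −1.85 to −0.64, edgeR adjusted p 0.0589), a level of 0.422 times labelled WT. The gene lies at chr11:97703434-97713500 (GRCm38.p6), and its promoter, printed above, holds the interferon-stimulated match at −163 to −154 bases from the start. Psmb3 was called at −1.61 without labelled Hira KO replicate 1 and at −0.97 without labelled Hira KO replicate 2.

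Psmb5, which carries the chymotrypsin-like site and lies at chr14:54614120-54617995, was at 35.6 and 28.7 CPM in labelled Hira KO and 54.7 and 52.7 CPM in labelled WT. Both labelled Hira KO values were lower, and the labelled WT values lay close together. The log2 estimate was −0.74 (SE 0.18, 95% interval −1.16 to −0.32, edgeR adjusted p 0.0752). It was called at −0.92 without labelled Hira KO replicate 1 and at −0.60 without labelled Hira KO replicate 2. Psmb7, with the trypsin-like site, was at 22.4 and 19.3 CPM in labelled Hira KO and 27.0 and 32.7 CPM in labelled WT, a log2 estimate of −0.51 (edgeR adjusted p 0.185). Psmb6, with the caspase-like site, was at 35.9 and 32.0 CPM in labelled Hira KO and 38.6 and 33.9 CPM in labelled WT. Here the groups overlapped, at a log2 estimate of −0.09 (SE 0.18, 95% interval −0.51 to 0.32, edgeR adjusted p 0.796). The matches to the antioxidant element in the printed Psmb5 and Psmb6 promoters thus stood beside estimates of −0.74 and −0.09.

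Psmb2, a structural beta subunit, was at 49.1 and 59.4 CPM in labelled Hira KO and 80.4 and 72.3 CPM in labelled WT, a log2 estimate of −0.49 (edgeR adjusted p 0.139). It was called, at −0.64, when labelled Hira KO replicate 2 was left out. The structural subunit Psmb4 was nearest 0 of the ring, at 19.7 and 17.5 CPM in labelled Hira KO and 21.6 and 16.8 CPM in labelled WT. These ranges overlapped. Its log2 estimate of −0.05 (edgeR adjusted p 0.927) became 0.03 without labelled Hira KO replicate 2 and 0.14 without labelled WT replicate 1.

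The 6 cap ATPases, Psmc1 to Psmc6, form the ring that unfolds substrates. Their median log2 estimate was −0.38. For 3 of them both labelled Hira KO libraries were below both labelled WT libraries, against 27.8% of all tested genes. Psmc5, at chr11:106256185-106263112, was at 16.9 and 10.7 CPM in labelled Hira KO and 25.2 and 24.8 CPM in labelled WT. The labelled Hira KO libraries were both lower and differed more between themselves than the labelled WT libraries did. Its log2 estimate was −0.86 (SE 0.26, 95% interval −1.46 to −0.25, edgeR adjusted p 0.116). It was called, at −1.24, without labelled Hira KO replicate 1. Psmc2, whose printed promoter holds an Ets core, was at 48.4 and 49.8 CPM in labelled Hira KO and 48.7 and 42.9 CPM in labelled WT. The ranges overlapped at a log2 estimate of 0.10 (SE 0.16, edgeR adjusted p 0.759), which became −0.0025 without labelled WT replicate 2 and −0.13 in limma on log2(TPM + 1).

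The 11 non-ATPase cap genes had a median log2 estimate of −0.47. In 10 of them both labelled Hira KO libraries were below both labelled WT libraries, against 27.8% of all tested genes. All 11 estimates were below 0. Psmd13, a lid subunit, had the lowest, at 15.1 and 9.32 CPM in labelled Hira KO and 21.2 and 20.02 CPM in labelled WT. Its log2 estimate was −0.76 (SE 0.27, edgeR adjusted p 0.162), beside the Ets core that covers the start site in its printed promoter. Psmd4, a ubiquitin receptor of the cap, was at 17.7 and 12.2 CPM in labelled Hira KO and 22.5 and 26.2 CPM in labelled WT, a log2 estimate of −0.70 (edgeR adjusted p 0.151). The large scaffold subunits Psmd1 and Psmd2 both had log2 estimates of −0.47 (edgeR adjusted p 0.149 and 0.145). Psmd14, the deubiquitinase of the lid, was at 34.4 and 23.6 CPM in labelled Hira KO and 39.9 and 39.2 CPM in labelled WT, a log2 estimate of −0.45. In 4 of these 5 genes, all but Psmd2, labelled Hira KO replicate 2 had the lowest value of the 4 libraries. The lid subunit Psmd12 was at 23.7 and 15.1 CPM in labelled Hira KO and 27.0 and 27.8 CPM in labelled WT. Another lid subunit, Psmd7, was at 28.8 and 21.7 CPM in labelled Hira KO and 32.1 and 30.8 CPM in labelled WT. Psmd6, also of the lid, was the estimate nearest 0, at 25.2 and 23.4 CPM in labelled Hira KO and 25.1 and 29.9 CPM in labelled WT, and its ranges overlapped (log2 estimate −0.18). Without labelled Hira KO replicate 1, 7 of the 11 were called lower, in the fit that called 10.8% of all genes lower.

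The immunoproteasome genes showed smaller differences than the core or cap in this set of libraries, with a median log2 estimate of −0.22 over Psmb8, Psmb9, Psmb10, Psme1 and Psme2. The difference between classes was not tested. Psmb8, which replaces Psmb5, was at 37.4 and 38.5 CPM in labelled Hira KO and 42.8 and 45.5 CPM in labelled WT. The groups did not overlap, at a log2 estimate of −0.22 (SE 0.16, 95% interval −0.60 to 0.16, edgeR adjusted p 0.457). Psmb9, which replaces Psmb6, was at 23.3 and 16.9 CPM in labelled Hira KO and 21.3 and 14.4 CPM in labelled WT. In both groups replicate 1 was the higher library, and the ranges overlapped. Its log2 estimate of 0.17 (SE 0.27, edgeR adjusted p 0.751) became −0.09 without labelled Hira KO replicate 1 and −0.10 without labelled WT replicate 2. Psmb10, which replaces Psmb7, was at 13.1 and 9.86 CPM in labelled Hira KO and 18.1 and 13.7 CPM in labelled WT, a log2 estimate of −0.47 (SE 0.26, edgeR adjusted p 0.332). Its groups were separate, with the higher labelled Hira KO library just under the lower labelled WT library.

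Psme1 and Psme2 encode the interferon-inducible activator that opens the core from its end. Psme1 was at 149 and 150 CPM in labelled Hira KO and 183 and 143 CPM in labelled WT. Psme2 was at 31.4 and 25.2 CPM in labelled Hira KO and 39.6 and 28.7 CPM in labelled WT. The ranges overlapped for both, at log2 estimates of −0.13 (edgeR adjusted p 0.693) and −0.27 (edgeR adjusted p 0.517). For Psme1 the estimate became 0.05 without labelled WT replicate 1.

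Because Psmb8, Psmb9 and Psmb10 compete with Psmb5, Psmb6 and Psmb7 for the same positions, their ratios of TPM were taken within each library. The Psmb8 to Psmb5 ratio was 0.488 and 0.616 in labelled Hira KO and 0.356 and 0.395 in labelled WT. The groups did not overlap, and the larger difference within the pair was that of Psmb5. The Psmb9 to Psmb6 ratio was 0.609 and 0.689 in labelled Hira KO and 0.540 and 0.337 in labelled WT, again without overlap but with a wide spread between the labelled WT libraries. This separation held in TPM only. By CPM, Psmb9 and Psmb6 were at 16.95 and 32.0 in labelled Hira KO replicate 2. They were at 21.3 and 38.6 CPM in labelled WT replicate 1, a higher ratio, so the groups overlapped. The Psmb10 to Psmb7 ratio was 0.523 and 0.433 in labelled Hira KO and 0.593 and 0.376 in labelled WT, and here the groups overlapped. Summed over the 3 pairs, the ratio was 0.548 and 0.615 in labelled Hira KO and 0.463 and 0.372 in labelled WT. In every library the constitutive subunit had the higher TPM of each pair. With 2 libraries a group an exact 2-sided permutation test cannot go below p = 0.333, and the ratios were not tested.

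**Figure D2:**
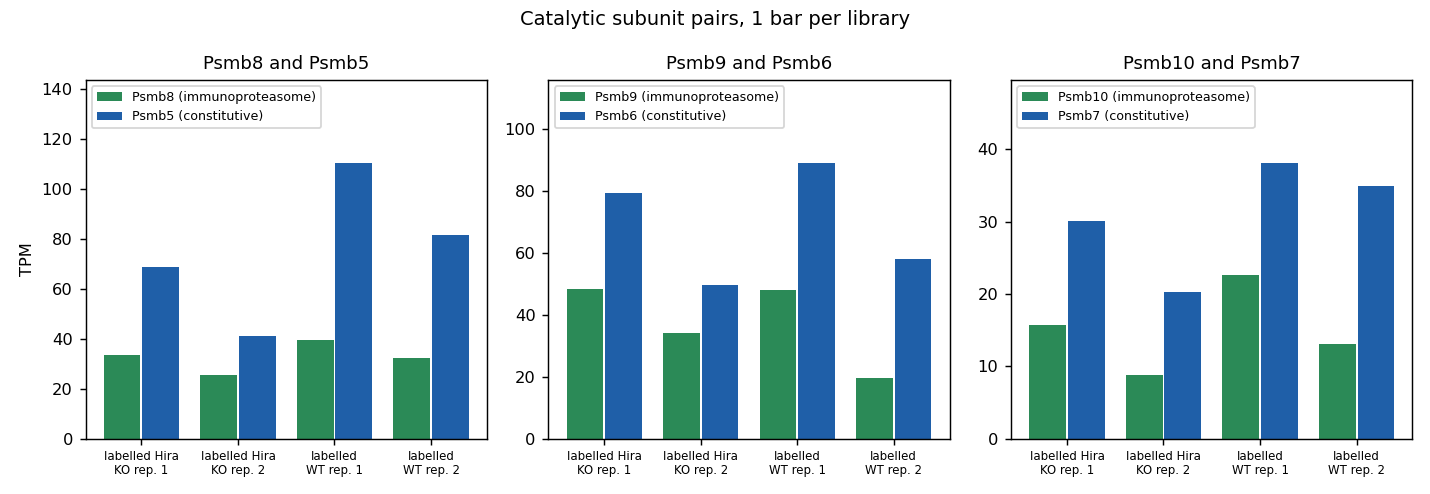
TPM (y axis) of the immunoproteasome subunit and of the constitutive subunit it replaces, 1 bar per gene and library, for the 3 catalytic positions. Psmb5 is lower in both labelled Hira KO libraries than in either labelled WT library, and the Psmb8 to Psmb5 ratio is 0.488 and 0.616 in labelled Hira KO against 0.356 and 0.395 in labelled WT.

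Assembly chaperones help the rings form and leave before the particle is complete. Their median log2 estimate was −0.09 over 7 genes, with 5 estimates below 0. For 3 of the 7 both labelled Hira KO libraries were below both labelled WT libraries, against 27.8% of all tested genes. Psmg3 had the lowest estimate of all members but an uncertain one. It was at 5.70 and 0.902 CPM in labelled Hira KO and 8.79 and 9.90 CPM in labelled WT, so that labelled Hira KO replicate 2 stood far below the other libraries. Its log2 estimate was −1.49 (SE 0.78, 95% interval −3.45 to 0.47, edgeR adjusted p 0.322), and −3.38, called, without labelled Hira KO replicate 1. Psmg4, at 1.61 and 3.19 CPM in labelled Hira KO and 1.43 and 2.19 CPM in labelled WT, had a log2 estimate of 0.40 (edgeR adjusted p 0.716), which became −0.18 without labelled Hira KO replicate 2. Of the 19S chaperones, Psmd9 was at 9.38 and 9.92 CPM in labelled Hira KO and 11.6 and 14.1 CPM in labelled WT, a log2 estimate of −0.42 (edgeR adjusted p 0.357). Psmd5 was at 38.3 and 39.4 CPM in labelled Hira KO and 37.7 and 43.1 CPM in labelled WT, with overlapping ranges. Its estimate of −0.06 became 0.03 without labelled WT replicate 2.

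Among the other members, Psme3 and Psmf1 had the lowest adjusted p-values. Psme3 encodes the nuclear activator that promotes degradation without ubiquitin and lies at chr11:101316213-101323537. It was at 101 and 78.0 CPM in labelled Hira KO and 151 and 139 CPM in labelled WT. The groups were well apart, at a log2 estimate of −0.70 (SE 0.17, 95% interval −1.10 to −0.30, edgeR adjusted p 0.0770). Psme3 was called at −0.91 without labelled Hira KO replicate 1 and at −0.53 without labelled Hira KO replicate 2. Psmf1, an inhibitor of the core in purified systems, was at 26.8 and 17.5 CPM in labelled Hira KO and 35.9 and 39.0 CPM in labelled WT, a log2 estimate of −0.76 (SE 0.24, edgeR adjusted p 0.124), and was called at −1.12 without labelled Hira KO replicate 1. Psme4, the activator linked to histone degradation in testis, was at 59.6 and 53.2 CPM in labelled Hira KO and 68.4 and 71.5 CPM in labelled WT. Its edgeR log2 estimate was −0.31 (edgeR adjusted p 0.269), but 0.0067 in limma on log2(TPM + 1). Psmc3ip, which meets the symbol rule but encodes a meiotic recombination factor and no subunit, was at 6.53 and 4.81 CPM in labelled Hira KO and 9.53 and 8.97 CPM in labelled WT.

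The tissue-restricted members Psmb11 and Psma8 were near the limit of detection. Psmb11, the cutting subunit of thymic cortical epithelium, had 1.45 and 2.58 CPM in labelled Hira KO and 0.741 and 0.711 CPM in labelled WT. Both labelled Hira KO libraries were higher, at a log2 estimate of 1.46 (SE 0.63, 95% interval −0.02 to 2.94, edgeR adjusted p 0.223). Its mean over the 4 libraries was 0.363 TPM, the lowest of all members. Psma8, the alpha subunit of the testis form, was at 2.85 and 1.56 CPM in labelled Hira KO and 1.96 and 4.21 CPM in labelled WT, with overlapping ranges, and its estimate of −0.48 became 0.16 without labelled WT replicate 2. Psme2b, a copy of Psme2 that may share its reads, was at 8.19 and 8.84 CPM in labelled Hira KO and 9.37 and 5.31 CPM in labelled WT, with an estimate of 0.21 that became −0.15 without labelled WT replicate 2.

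Set against the labelled WT mean of each gene, the core had a median log2 ratio of −0.41 in labelled Hira KO replicate 1 and −0.34 in replicate 2. For the cap the medians were −0.28 in labelled Hira KO replicate 1 and −0.57 in replicate 2. For the immunoproteasome they were −0.13 and −0.20 in labelled Hira KO, against 0.19 and −0.21 in the labelled WT libraries themselves. The core and cap medians in labelled Hira KO lay outside those of the labelled WT libraries, which were 0.07 and −0.07 for the core and 0.02 and −0.02 for the cap. Both immunoproteasome medians of labelled Hira KO lay within the labelled WT range. The reference of each gene is the mean of these same labelled WT libraries, so their own values fall on either side of 0 by construction. Over all members, 43 were below the labelled WT mean in labelled Hira KO replicate 1 and 46 in replicate 2. Of all 16258 tested genes, 8155 and 8146 were below it in these libraries.

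**Figure D3:**
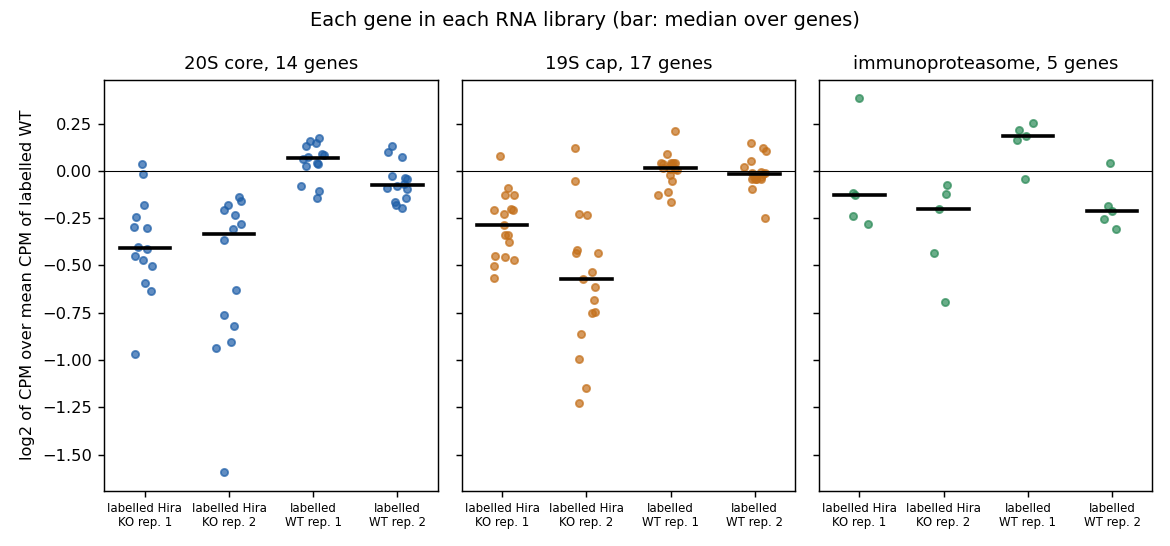
Log2 of the CPM of each gene over its mean in labelled WT (y axis), 1 point per gene and library, with a bar at the median over genes. In the 20S core and 19S cap the bars of both labelled Hira KO libraries lie below both labelled WT bars, while in the immunoproteasome they lie at −0.13 and −0.20, between the labelled WT bars at 0.19 and −0.21.

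Levels per length differed widely among subunits that the particle holds in equal number. Over the mean of the 4 libraries, core genes ran from 19.2 TPM (Psma1) to 122 TPM (Psmb2), a 6.37-fold span. Cap genes ran from 15.5 TPM (Psmc1) to 40.9 TPM (Psmd8), a 2.63-fold span. The highest member was Psme1, at 363 and 218 TPM in labelled Hira KO and 381 and 230 TPM in labelled WT. Its partner Psme2 was at 71.5 and 50.4 TPM in labelled Hira KO and 97.3 and 48.6 TPM in labelled WT. In TPM replicate 1 was the higher library of its group for both genes. So it was for the median of all tested genes, at 6.39 and 4.72 TPM in labelled Hira KO and 6.39 and 4.85 TPM in labelled WT. The ratio of the core median to the cap median in TPM was 1.63 and 1.82 in labelled Hira KO and 1.74 and 1.93 in labelled WT, with overlap. Across the 50 members, which share the same 4 libraries, Spearman's rho of the log2 fold change was −0.0396 with length and −0.0929 with mean TPM.

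Genes that work with the proteasome were described from lists. Of 14 proteasome-associated genes 1 was called higher and 0 lower by edgeR, with a median log2 estimate of −0.31. The called gene was Zfand5, which encodes a protein that binds the particle and speeds degradation. It was at 179 and 145 CPM in labelled Hira KO and 86.2 and 74.5 CPM in labelled WT, so that Zfand5 rose in labelled Hira KO by a log2 estimate of 1.01 (SE 0.17, edgeR adjusted p 0.0417). The deubiquitinases Uchl5 and Usp14 were at −0.62 and −0.46 (edgeR adjusted p 0.128 and 0.180). Pomp, which matures the core, was at 0.01.

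Of 9 regulators of proteasome genes none was called by edgeR, with 3 at an unadjusted p below 0.05, a level that 22.8% of all tested genes reached in either direction. Their median log2 estimate was 0.02. Nfe2l3, a relative of Nfe2l1, had the lowest adjusted p of the list. It was at 13.2 and 9.14 CPM in labelled Hira KO and 4.23 and 5.31 CPM in labelled WT, both higher in labelled Hira KO (log2 estimate 1.23, edgeR adjusted p 0.0863). The small Maf gene Maff, whose product pairs with these factors, was at 1.40 and 11.5 CPM in labelled Hira KO and 0.635 and 0.547 CPM in labelled WT (log2 estimate 3.42, edgeR adjusted p 0.139), and Mafk was at a log2 estimate of 0.57 (edgeR adjusted p 0.339). Nfe2l1, the factor that raises proteasome transcription when the particle is inhibited, was at 54.9 and 49.05 CPM in labelled Hira KO and 61.1 and 59.9 CPM in labelled WT (log2 estimate −0.22, edgeR adjusted p 0.441). Ddi2, the protease that activates Nfe2l1, was at 45.8 and 54.1 CPM in labelled Hira KO and 66.9 and 65.4 CPM in labelled WT (log2 estimate −0.41, edgeR adjusted p 0.191). For both genes the labelled Hira KO values lay below the labelled WT values. Of 9 genes for ubiquitin supply and unfolding none was called by edgeR, with 3 at an unadjusted p below 0.05, against the same 22.8% of all tested genes, and a median of −0.05. Of 11 genes for MHC class I loading none was called by edgeR, with 5 at an unadjusted p below 0.05, again against 22.8%, and a median of 0.11. Within that list B2m was at 0.69 (edgeR adjusted p 0.138) and Tap2 at 0.84 (edgeR adjusted p 0.169), while the chaperone gene Calr was at −0.59 (edgeR adjusted p 0.0805).

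In ATAC-seq, the start sites of the members were open in nearly every library. The 4 peak lists held 92839 and 73715 peaks in labelled Hira KO and 79565 and 63422 in labelled WT, merged into 112479 regions. The read depth behind them is unknown. Of the 42 members with a RefSeq start site in the table used, 39 had it inside a region called in all 4 libraries, or 92.9%, against 80.6% of all tested genes. The exceptions were Psmb11 and Psme2b, without a region there, and Psmb8. At the Psmb8 start the authors' fold enrichment over background was 8.16 and 5.83 in labelled Hira KO and 4.62 in labelled WT replicate 1, and no peak was called in labelled WT replicate 2. The core had the strongest start regions, led by Psma1, at 142 and 114 in labelled Hira KO and 176 and 114 in labelled WT.

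Median enrichment at the start sites did not separate the groups. The median over the 39 members was 60.8 and 49.1 in labelled Hira KO and 67.0 and 43.3 in labelled WT, so the labelled WT libraries lay on both sides. The median log2 ratio of labelled Hira KO over labelled WT was 0.09 for members and 0.08 for all tested genes. By class, the medians were 69.7 and 70.4 in labelled Hira KO and 72.5 and 49.9 in labelled WT for 11 core genes. They were 68.5 and 53.4 in labelled Hira KO and 68.0 and 44.5 in labelled WT for 14 cap genes. For Psmb9, Psmb10, Psme1 and Psme2 they were 36.1 and 25.6 in labelled Hira KO and 33.3 and 20.8 in labelled WT. The Psmb3 start had 65.7 and 80.6 in labelled Hira KO and 72.5 and 61.1 in labelled WT, and the Psmb5 start 25.4 and 24.4 in labelled Hira KO and 23.7 and 19.7 in labelled WT. At the Psmb3 start the groups overlapped, and at the Psmb5 start both labelled Hira KO enrichments were above both labelled WT enrichments, while its RNA estimate was below 0. Across the 39 members, Spearman's rho between the log2 enrichment ratio and the log2 fold change of RNA was 0.148, given as a description.

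**Figure D4:**
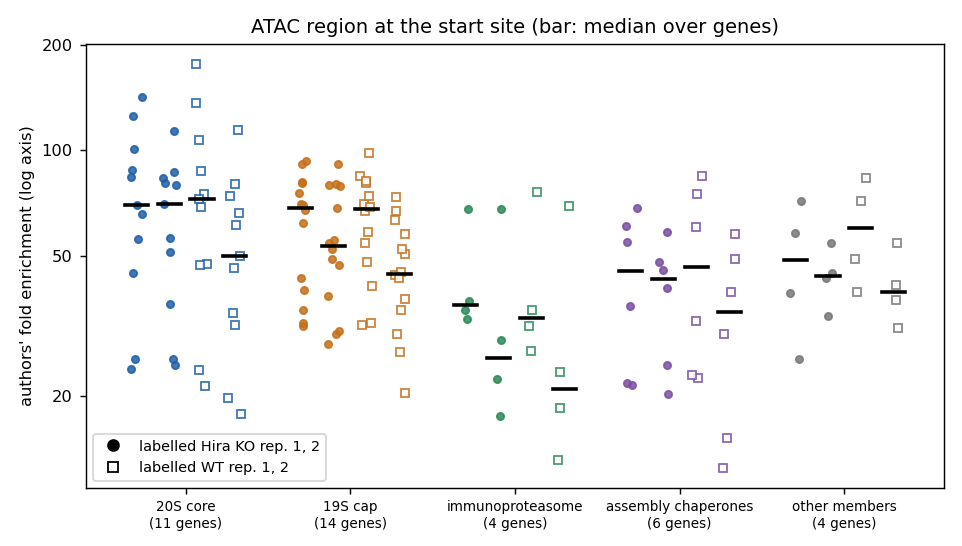
The authors' fold enrichment (y axis, log scale) of the ATAC region at the start site, 1 point per gene and library, with a bar at the median over genes. Filled circles are labelled Hira KO and open squares labelled WT, with replicate 1 left of replicate 2. The groups overlap in every class, and the immunoproteasome bars, at 36.1 and 25.6 in labelled Hira KO and 33.3 and 20.8 in labelled WT, are the lowest.

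Within 10 kb of the gene body, 49 of 50 members had an ATAC region, against 96% of all tested genes with a position, and the exception was Psme2b. A region called in all 4 libraries was near 48 members, against 90.6% of all such genes. In total 232 regions lay near members, with a median of 4 per gene and up to 14 at Psmd14. Of these regions 137, or 59.1%, were called in all 4 libraries, against 40.7% of all merged regions. The merged regions were not limited by distance to a gene, and the share within 10 kb of all tested genes was not taken. The region at chr17:34186971-34188473 covered the Psmb9 start together with the low-coordinate boundary of Tap1, the peptide transporter gene beside it. Its enrichment was 34.97 and 28.8 in labelled Hira KO and 31.6 and 23.3 in labelled WT.

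Regions called in one pair only were found near few members with all 4 libraries in use. A region called in both labelled Hira KO libraries and neither labelled WT library lay near 2 members, against 22.5% of all such genes. The reverse was found near 5 members, against 17.1% of all such genes. The 2 regions of the labelled Hira KO pair were chr7:140874235-140874590 near Psmd13, within the gene Sirt3, and chr2:34857817-34858190 within Psmd5. The 5 regions of the labelled WT pair lay near Psma3, Psmb6, Psmd12 and Psmd7 and within Psma8. These counts rested on having both libraries of each pair. Omitting replicate 1 of labelled Hira KO gave 7 regions seen only in labelled Hira KO and 10 seen only in labelled WT, and omitting its replicate 2 gave 19 and 10. Omitting replicate 1 of labelled WT gave 7 seen only in labelled Hira KO and 16 only in labelled WT, and omitting its replicate 2 gave 3 and 27. The 7 regions found with all libraries were weak, with enrichments between 2.89 and 7.504 where called. The region in Psma8 covered the low-coordinate boundary of that gene, and the other 6 covered no boundary of their gene. For Psmd13 and Psma3 the nearby one-pair region stood beside RNA estimates of −0.76 and −0.35, neither past the test.

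Promoter windows were found for 42 members, 45 windows in all, and Psma8, Psmb1, Psmb2, Psmb7, Psmc3, Psmd3, Psmd7 and Psmg2 had none in the table. The Ets core CCGGAAG, searched on both strands, was in 16 of 45 member windows, or 35.6%, against 8.86% of all 32851 windows and 16.5% of the windows of tested genes. By class it was in 10 of 15 cap windows, or 66.7%, in 1 of 12 core windows, or 8.33%, and in 0 of 6 immunoproteasome windows. Among cap genes, the 9 with the motif had a median log2 estimate of −0.47 and the 5 without it −0.45. Psmd13 and Psmc2, printed above, both hold it and stood at −0.76 and 0.10. A match describes letters in a window and is no measured binding site.

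The antioxidant response element TGACNNNGC was in 6 of 45 member windows, or 13.3%, against 12.4% of all windows and 14.2% of those of tested genes. Its 6 genes were Psmb5, Psmb6, Psmc6, Psmd9, Psmd12 and Psme4, with a median log2 estimate of −0.36. The 36 members without it had a median of −0.32. The interferon-stimulated element was in 5 windows, or 11.1%, against 3.44% of all windows and 3.18% of those of tested genes. Those 5 genes were Psmb3, Psmd4, Psmd9, Psme1 and Psmg4, with estimates from −1.24 to 0.40. By class this element was in 1 of 12 core, 1 of 15 cap and 1 of 6 immunoproteasome windows. Counting only the 250 bases before the start, it was in 3 windows, or 6.67%. The shares there were 2.98% of all windows and 2.72% of those of tested genes. CCAAT was in 33.3% of member windows and 37.4% of all windows, and TATAAA in 8.89% of member windows and 13.6% of all windows.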

How the data were processed

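RNA-seq and ATAC-seq of sorted LSK cells were measured in 8 libraries, and the titles gave each library its group and replicate number. The members and lists were chosen with earlier results of these data known. Per the file headers, each RNA table holds the authors' expected count and TPM per gene. The deposited expected counts carry no normalization, and the deposited TPM values are scaled to a common total per library. The deposited peak lists give the authors' fold enrichment, a ratio, with −log10 p-values and −log10 q-values. Tools in the submitters' processing notes, without their steps, are RSEM 1.3.0, HTSeq, STAR 2.5.3a, MACS2 2.1.1, bedtools, Bowtie2 2.2.9, DESeq2 and Trim Galore 0.4.5, with the build GRCm38. Neither the transposase offset nor the strand used in counting is given in the sources used here.

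Symbols were matched for 45143 of 45706 gene IDs, and positions, start sites and promoters came from RefSeq tables of GRCm38.p6. Rounded expected counts entered the robust quasi-likelihood F test of edgeR 4.0.16 (R 4.3.3, TMM scaling, filterByExpr, genotype as sole term), with Benjamini-Hochberg adjustment over 16258 genes and calls below 0.05. CPM use TMM-scaled library sizes. The biological coefficient of variation was 27.8%. Libraries of a group differed by more than sampling noise (chi-square per gene 66.2 for labelled Hira KO, 49.1 for labelled WT). Depth was 16.6 to 19.8 M counts per library, which limits genes of low count most. Values per library are given for the 6 catalytic subunits, the extremes of each role and members near a region called in one pair, plus others picked after their values were seen. Peaks overlapping by 1 bp were merged and counted within 10 kb of a gene body. DESeq2 1.42.0, limma 3.58.1 on log2(TPM + 1) and log2(TPM + 0.1), other scalings and filters, a replicate block and the omission of single libraries were the alternatives. Marker sums without the most abundant gene of a list were added after the data were seen. The edgeR and peak steps were tested on simulated data.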

Additional observations from a re-analysis of the deposited data

How the results depend on the processing

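Of all tested genes, 214 were called higher and 78 lower in labelled Hira KO. These counts became 923 and 575 with DESeq2, 1206 and 1017 with no filter on low counts, 392 and 262 with limma on log2(TPM + 1), and 376 and 246 with limma on log2(TPM + 0.1). Keeping genes of at least 10 CPM in 2 libraries left 29 called lower. Leaving out single libraries gave 1 to 1657 called higher and 1 to 1888 called lower, where the lone library of a group was assumed to vary like the other group. The count of members called lower, 0 in edgeR, was 3 with DESeq2, 9 with no filter, 2 with limma on log2(TPM + 1) (Psmb3 and Psmg3), 1 with limma on log2(TPM + 0.1) (Psmb3) and 0 to 16 with single libraries left out. The cause was not tested. No member was called higher in any of these fits. With the replicate number as a block, 368 genes were called higher, 169 lower, and 1 member (Psmb3) lower, against 1.04% of all genes. The same-numbered libraries' deviations correlated at 0.0609 over 16258 genes, and the labels do not say that a number marks a shared source, so the samples share only a number. Without a filter the median of all genes was 0.13, against 0.01. Class medians stayed below 0 in every fit, between −0.35 and −0.57 for the core, −0.29 and −0.59 for the cap and −0.03 and −0.31 for the immunoproteasome, taken over the members each fit tested. Of the 42 members that every fit tested, 36 were below 0 in each.

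Estimates took the other sign in 21 of 592 pairs of member and setting. With at least 10 CPM in 2 libraries Psmb4 was at 0.017 and Psmd5 at 0.0074. With limma on log2(TPM + 1) and log2(TPM + 0.1) Psmc2 was at −0.13 and −0.14, Psme4 at 0.0067 and 0.0078, and Psmg1 at −0.0078 and −0.044. With the replicate block Psmg1 was at −0.051. With single libraries left out, Psma8 ranged from −0.996 to 0.16, Psmb4 from −0.23 to 0.14, Psmb9 from −0.095 to 0.47, Psmc2 from −0.0025 to 0.18, Psmd5 from −0.16 to 0.026, Psmd10 from −0.58 to 0.25, Psme1 from −0.31 to 0.048, Psme2b from −0.15 to 0.67, Psmg1 from −0.70 to 0.53 and Psmg4 from −0.18 to 0.80. Regions called in the labelled Hira KO pair only, 2 within 10 kb, numbered 1 within 2 kb, 23 within 50 kb and 3 to 19 with single libraries left out. Regions called in the labelled WT pair only, 5 within 10 kb, numbered 2 within 2 kb, 13 within 50 kb, 3 among peaks of −log10 q of at least 10, and 10 to 27 with single libraries left out.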
